A study of Mus musculus with 2 samples.

Results

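A set of 10 lymphoid factor genes was followed across activated CD4 T cells labelled as Gfi1 knockout or Gfi1 wild type, namely Runx1, Runx2 and Cbfb of the Runx complex, Ikzf1, Ikzf3 and Ikzf5 of the Ikaros family, Ets1, Fli1 and Elf1 of the Ets family, and Bcl11b. They were chosen by gene symbol, as every probe that the array's annotation assigns to 1 of these 10 genes, of 20738 genes with a named probe. That gave 17 probes, each printed on 1 spot. All 10 genes had a probe above the floor, a limit set at each array's median signal, and 13411 genes of the array did. Both groups came from C57BL/6 mice. Per the labels, naive CD4 T cells (low CD44, high CD62L, no CD25) were isolated from spleen with a kit and stimulated for 2 days through the T cell receptor (3 µg/ml of antibody) and CD28 (1 µg/ml). The medium of both cultures held IL-2 (10 ng/ml) with blocking antibodies to IL-4 and IFN-γ (5 µg/ml each). The groups differ by label only in Gfi1, which encodes a zinc-finger repressor of transcription, and the labels do not say how the gene was disrupted or from how many mice a culture came. By its title, the series is about Gfi1 and T helper 1 genes.

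RNA of 1 culture per genotype was hybridised to 1 single-colour array, so no difference below has a replicate check and no p-value is given. At the 75th percentile, probes read 269 units on the knockout-labelled array and 263 units on the wild-type-labelled array, and the floor lay at 14.6 and 14.2 units. Differences are on the log2 scale, knockout label minus wild-type label, after each array was scaled to its 75th percentile. As a measure of error within the arrays, probes printed on 10 spots gave a median SD of the difference of 0.35 at signals of 15 to 50 units, 0.11 at 50 to 500, 0.048 at 500 to 5000 and 0.039 above 5000. Gfi1 itself read 18100 units under the knockout label and 4260 units under the wild-type label, on a single probe whose place relative to the disrupted part no source used here gives. Every direction below therefore rests on the labels. Sex-linked transcripts also differed, with Xist below the floor under the knockout label and at 447 units under the wild-type label, and Eif2s3y at 3870 units under the knockout label and below the floor under the wild-type label. Genotype label and sex-linked readings cannot be told apart with 1 array each.

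Runx proteins bind DNA through the Runt domain and need CBFβ, the product of Cbfb, for stable binding. In T cells they silence or activate lineage genes, CD4 and ThPOK among them. Ikaros proteins are zinc-finger factors that recruit chromatin remodellers and repress or prime lymphoid genes. Ets proteins recognise a GGAA core, and Ets1, Fli1 and Elf1 act at many T cell promoters and enhancers. BCL11B is a zinc-finger factor required for commitment to the T cell lineage.

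Transcription of Runx1 starts from more than one promoter, and its annotated starts are shown because its 2 probes, which the annotation ties to different RefSeq transcripts, read differently. The Runx2 promoter is shown beside them as that of the related gene that read higher under the knockout label. Each line gives the 250 bases before an annotated start from the RefSeq promoter table of build GRCm38.p6, on the minus strand and read 5′ to 3′, at chr16:92826075-92826324, chr16:92697330-92697579 and chr17:44814628-44814877. Capitals mark the searched motifs.
Runx1 upstream start: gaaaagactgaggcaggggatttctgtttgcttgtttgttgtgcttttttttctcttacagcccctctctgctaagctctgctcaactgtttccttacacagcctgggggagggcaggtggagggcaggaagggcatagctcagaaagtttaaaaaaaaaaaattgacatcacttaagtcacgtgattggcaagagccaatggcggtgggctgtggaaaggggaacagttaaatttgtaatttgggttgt
Runx1 downstream start: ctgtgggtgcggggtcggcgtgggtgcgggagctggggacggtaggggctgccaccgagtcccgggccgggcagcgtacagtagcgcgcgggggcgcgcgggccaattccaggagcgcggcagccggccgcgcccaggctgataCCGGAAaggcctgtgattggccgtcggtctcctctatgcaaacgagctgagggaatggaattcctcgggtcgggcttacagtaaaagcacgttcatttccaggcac
Runx2 start: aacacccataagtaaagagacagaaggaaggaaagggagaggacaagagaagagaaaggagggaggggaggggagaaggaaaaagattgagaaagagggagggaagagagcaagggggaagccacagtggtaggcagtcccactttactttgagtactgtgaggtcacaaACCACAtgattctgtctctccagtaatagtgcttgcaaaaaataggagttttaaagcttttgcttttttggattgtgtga

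The motifs searched, on both strands, were TGTGGT for RUNX, CCGGAA for ETS, TGGGAA for Ikaros and AATCNNNGC for GFI1. The Runx1 downstream start holds 1 ETS match and the Runx2 start 1 RUNX match, read there as ACCACA, and no motifs overlap. Of 32851 promoter windows of the same length, 14.0% hold the RUNX motif, 12.0% the ETS motif, 21.6% the Ikaros motif and 8.87% the GFI1 motif. The table held 10 windows for 7 of the 10 genes, and the other 8 windows, which belong to Bcl11b, Cbfb, Elf1, Ikzf1, Ikzf5 and the Runx1 upstream start, held none of these letters. Which Runx1 start gives rise to which probed transcript is not given in the tables used here. The Runx1 upstream window is 45.6% G and C, the downstream window 67.6% and the Runx2 window 44.8%, against a median of 52.4% over all windows.

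Most of the 10 factor genes read nearly the same under both labels. Of the 10, 0 were at least 2-fold apart, where 5.14% of all genes above the floor were. At a fold of 1.5, Runx2 and Ikzf3 were higher under the knockout label and 0 genes were lower, where 7.67% of all genes were higher, 4.25% lower and 11.9% either. The median difference over the 10 was -0.06, beside -0.05 over all genes. Differences lay below 0 for 6 of 10 genes and for 58.4% of all genes, a share near the background. Among the 8 members with a mean signal above 50 units, 0 were 1.5-fold apart, where 8.28% of such genes on the array were.

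**Figure D1:**
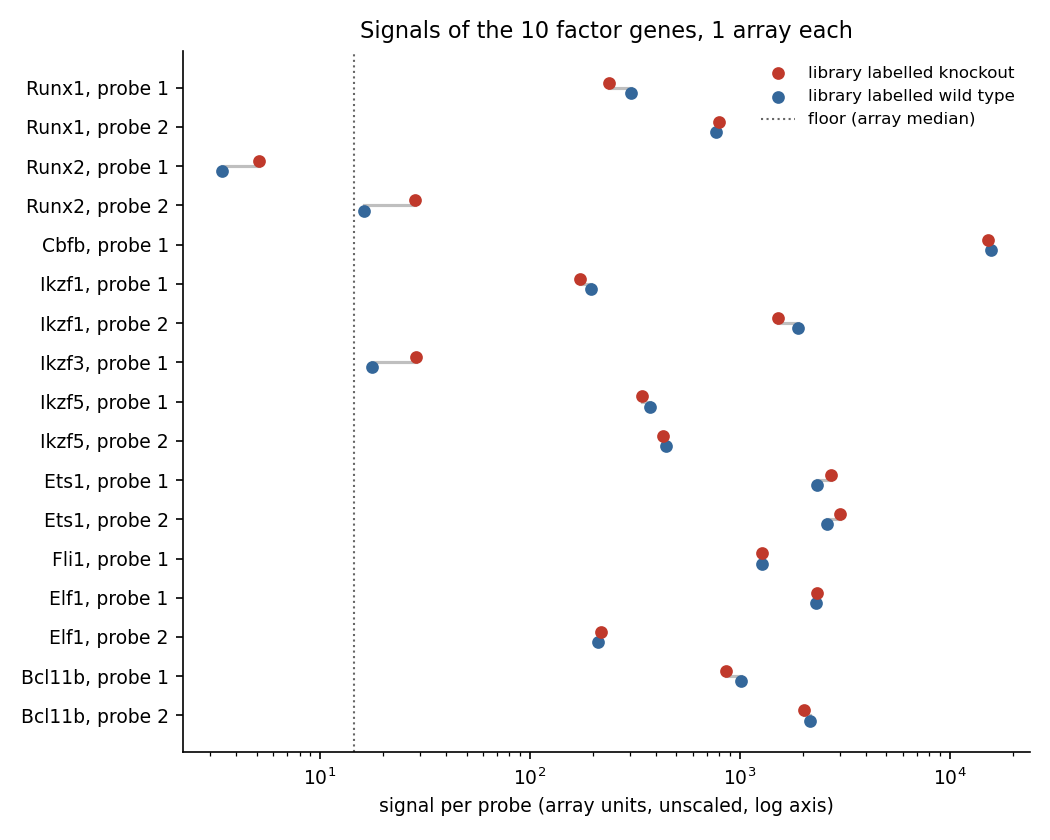
Signal of each of the 17 probes on the knockout-labelled array (red) and the wild-type-labelled array (blue), in unscaled array units on a log axis, with the floor of the knockout-labelled array (14.6 units) dotted. Probes are numbered within a gene by position on the array. The pairs lie close together except for the dim Runx2 and Ikzf3 probes near the floor.

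**Figure D2:**
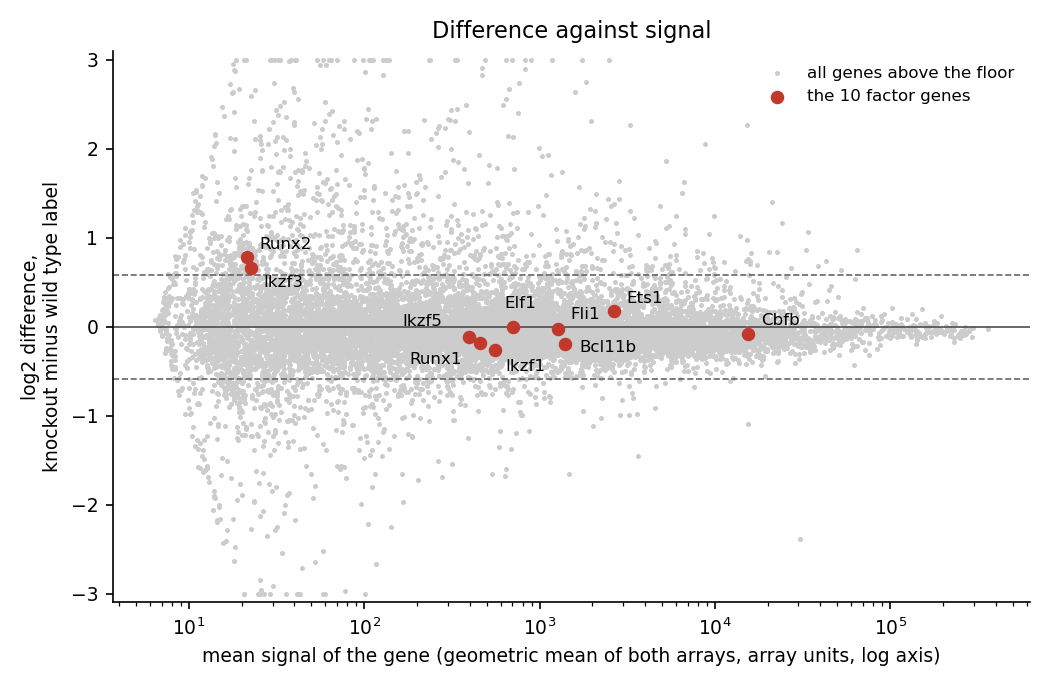
Log2 difference (knockout minus wild-type label) against the geometric mean signal of both arrays for 13411 genes (grey) and the 10 factor genes (red). Grey points beyond 3 in either direction are drawn at 3, and dashed lines mark a 1.5-fold difference. Runx2 and Ikzf3 sit at the dim end, where the grey points spread widest, and the other 8 lie between the dashed lines.

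Within the Runx complex, the members that were clearly above the floor were close to equal. Cbfb, the partner that does not itself bind DNA, read 15300 units under the knockout label and 15800 units under the wild-type label, a difference of -0.08 on 1 probe. Runx1, the Runx factor of early T cells and of naive CD4 T cells, was read by 2 probes that disagreed. The probe A_51_P206585 gave 238 and 305 units under the knockout and wild-type labels, a difference of -0.39. The probe A_55_P2183438 gave 798 and 769 units, a difference of 0.02. The first lies beyond the 0.11 of replicate spots at its signal and the second within 0.048, and the mean is -0.18 ± 0.29 (SD over 2 probes). Of 2996 genes with 2 probes above the floor, 13.4% had their probes at least as far apart as the 0.41 seen for Runx1.

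Runx2, best known for bone formation and also present in some T cell subsets, was dim on both arrays. Its probe A_52_P460545 read 28.4 units under the knockout label and 16.2 units under the wild-type label, a 1.71-fold difference (log2 0.78), on a spot with feature number 60370. The other Runx2 probe read 5.1 and 3.41 units, below the floor on both arrays. The brighter reading stood 2.21 times the SD of replicate spots above 0. Among all genes of 15 to 50 units, 15.5% were at least 1.5-fold higher. With 16 units added to every signal the Runx2 difference was 0.43, under the 1.5-fold limit, and without spots above feature number 50000 it has no value.

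Of the 8 members above 50 units, Ikzf1 lay farthest from 0. Ikzf1 encodes Ikaros, the founding member, which restrains activation and T helper 1 genes in mouse T cells. Its probe A_66_P124139 gave 1530 units under the knockout label and 1890 units under the wild-type label, and its probe A_55_P2023612 gave 174 and 195 units. Both were lower under the knockout label, with differences of -0.34 and -0.20. In SDs of replicate spots at their signals, these differences are -7.04 and -1.74. The mean was -0.27 ± 0.10 (SD over 2 probes), and 23.4% of genes at 500 to 5000 units lay as far from 0 or farther. Ikzf5, which encodes the distant relative Pegasus, gave 344 and 433 units under the knockout label, against 374 and 446 units under the wild-type label for the same 2 probes. Its mean difference was -0.11 ± 0.055 (SD over 2 probes), close to the 0.11 of replicate spots, and both spots have feature numbers above 50000.

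Ikzf3, which encodes Aiolos, a family member abundant in B cells and induced in some T helper cells, was dim. Its single probe read 28.7 units under the knockout label and 17.8 units under the wild-type label, a 1.58-fold difference (log2 0.66). The reading stood 1.87 times the SD of replicate spots above 0, in the signal range where 15.5% of genes were 1.5-fold higher. With 16 units added it was 0.37, under the limit. Neither Runx2 nor Ikzf3 keeps a value after raising the floor to the 75th percentile.

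The Ets members split into 1 gene that was slightly higher and 2 that were level. Ets1, a main Ets factor of resting T cells that supports their survival and cytokine genes, gave 2720 and 3000 units under the knockout label, against 2340 and 2620 units under the wild-type label. Both probes were higher by a like amount, 0.18 and 0.16, with a mean of 0.17 ± 0.015 (SD over 2 probes). That is beyond the 0.048 of replicate spots, yet 42.4% of genes at this signal lay as far from 0 or farther. Fli1, which lies next to Ets1 on chromosome 9 in the RefSeq gene order with 0 protein-coding genes between them, read 1280 units on both arrays, a difference of -0.03 after scaling. Elf1, which binds enhancers and promoters of T cell genes, gave 2340 and 218 units under the knockout label, against 2300 and 212 units under the wild-type label. Its 2 differences were -0.0077 and 0.0077. Fli1 and Elf1 both pass 0 under other scalings of the arrays.

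Bcl11b was slightly lower on both of its probes. The 2 probes gave 861 and 2030 units under the knockout label, against 1010 and 2170 units under the wild-type label. The differences were -0.26 and -0.13, with a mean of -0.20 ± 0.095 (SD over 2 probes). Each exceeds the 0.048 of replicate spots, and 36.9% of genes at this signal lay as far from 0 or farther.

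Relatives outside the 10 were read in the same way. Of 27 other Runx, Ikaros, Ets and Bcl11 genes, 26 had a named probe and 19 were above the floor. Of these 19, 5 were at least 1.5-fold higher and 1 lower under the knockout label, where 7.67% and 4.25% of all genes were, and the median was -0.06. The 6 became 2 of 12 after raising the floor to the 75th percentile and 3 of 19 with 16 units added. Runx3, the Runx factor of CD8 T cells and T helper 1 cells, which acts with T-bet at Ifng, gave 883 and 224 units under the knockout label, against 492 and 151 units under the wild-type label. Both probes were higher, with a mean of 0.67 ± 0.19 (SD over 2 probes). The Runx3 difference exceeded that of Runx1 by 0.86.

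Ikzf2, which encodes Helios, a factor of regulatory and activated T cells, gave 225 and 149 units under the knockout label, against 117 and 84.1 units under the wild-type label. Its mean difference was 0.85 ± 0.084 (SD over 2 probes), and it exceeded that of Ikzf1 by 1.12. Ikzf4, which encodes Eos, a partner of FOXP3, differed by 0.46 and 0.44 on its probes of 2640 and 1990 units under the knockout label (1870 and 1430 under the wild-type label), and by -0.27 on another probe of 52.9 and 62.4 units. Its mean was 0.21 ± 0.42 (SD over 3 probes). Within both the Runx and the Ikaros family, the relatives Runx3 and Ikzf2 were higher on each of their probes while Runx1 and Ikzf1 were not. The dim members Runx2 (0.78) and Ikzf3 (0.66) were also higher, each on 1 probe above the floor. Members and relatives of these families therefore do not separate by direction.

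Among Ets relatives, Etv6, a repressor needed in blood stem cells, read 1460 units under the knockout label and 948 units under the wild-type label, a difference of 0.59. Spib, a factor of B cells and plasmacytoid dendritic cells, read 93.1 and 59.9 units (0.60), and Etv1 35.0 and 21.9 units (0.64) on a dim spot above feature number 50000. Etv3, a repressor described in macrophages, was 2.02-fold lower (120 and 237 units, log2 -1.01). Etv6, Spib, Etv1 and Etv3 have 1 probe each above the floor. Ets2 stood at -0.27 (1770 and 2090 units) and Gabpa at -0.06 ± 0.21 (SD over 2 probes). Elf4, which restrains proliferation of mouse CD8 T cells, stood at 0.37 on 1 dim probe (46.8 and 35.3 units). At that signal replicate spots gave an SD of 0.35. Bcl11a, the relative of Bcl11b, was read by 2 dim probes that went opposite ways, at 0.92 and -0.58, each with 1 array below the floor. Spi1, which encodes PU.1, read 5.1 and 3.04 units, below the floor on both arrays.

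**Figure D3:**
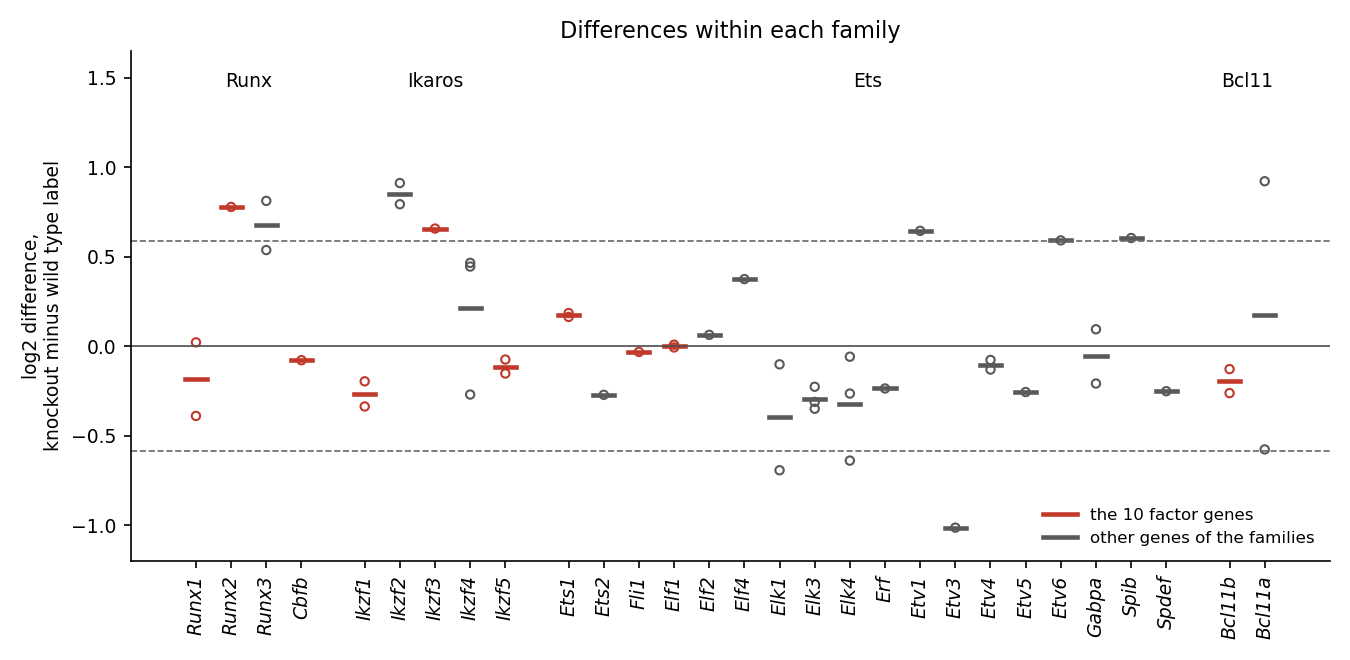
Log2 difference (knockout minus wild-type label) for the 10 factor genes (red) and the other genes of their families above the floor (grey). Bars are gene means, circles single probes above the floor, and dashed lines mark a 1.5-fold difference. Runx3 and Ikzf2 stand above 0.5 on every probe, Etv3 at -1.01 is lowest, and Bcl11a has its 2 circles on opposite sides of 0.

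Corepressors and chromatin partners of these factors had a median difference of -0.05, beside -0.05 over all genes. Of 32 listed genes 29 were above the floor, and 1 was at least 1.5-fold higher and 0 lower, where 7.67% and 4.25% of all genes were. After lowering the floor to the 25th percentile, 3 of 31 were 1.5-fold apart. The 1 gene was Tle1, a Groucho corepressor that Runx proteins recruit. It gave 745, 299 and 70.8 units under the knockout label, against 287, 239 and 24.9 units under the wild-type label. All 3 probes were higher, with a mean of 1.04 ± 0.65 (SD over 3 probes). The lowest of the list was Chd3, a Mi-2 remodeller of the NuRD complex that Ikaros binds, at -0.30 (7180 and 8670 units under the knockout and wild-type labels).

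T cell genes reported elsewhere as regulated by these factors were mostly higher. Of 34 listed genes, chosen with earlier results of these data known, 28 were above the floor. Of the 28, 25 lay above 0 with a median of 0.76, where 58.4% of all genes lay below 0 with a median of -0.05. At a fold of 2, 12 were higher and 0 lower under the knockout label, where 3.62% and 1.52% of all genes were. After raising the floor to the 75th percentile 7 of 23 were 2-fold apart. Among cytokine genes bound by Runx or Ets factors these were Ifng, Il3, Il2, Lta and Csf2, at 17.3-fold, 4.58-fold, 4.42-fold, 2.82-fold and 2.03-fold. Among effector genes that Runx3 and T-bet control they were Tbx21, Gzmb and Eomes, at log2 differences of 3.00, 2.27 and 1.47. Dntt, which encodes terminal transferase and is a classic Ikaros target of thymocytes, read 533 units under the knockout label and 129 units under the wild-type label, a 4.04-fold difference. Il7r, which needs GABP and Ets factors, stood at 1.40.

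Tyrobp and Klrd1, natural killer genes that rise in mouse T cells lacking Bcl11b, stood at 1.78 and 1.75, while Ncr1 was at least 1.95-fold higher (28.3 units, against 10.2 units, below the floor, under the wild-type label). The lowest of the list was Klf2, a quiescence factor downstream of Elf4, at -0.87 (715 and 1280 units). Zbtb7b, the ThPOK gene that Runx complexes silence, stood at 0.17 ± 0.19 (SD over 3 probes), and Cd4 at -0.14 ± 0.034 (SD over 2 probes). A further 5 genes of the list lay below the floor on both arrays. The list mixes genes that are activated and repressed by these factors or their relatives, so its direction says nothing of their activity.

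**Figure D4:**
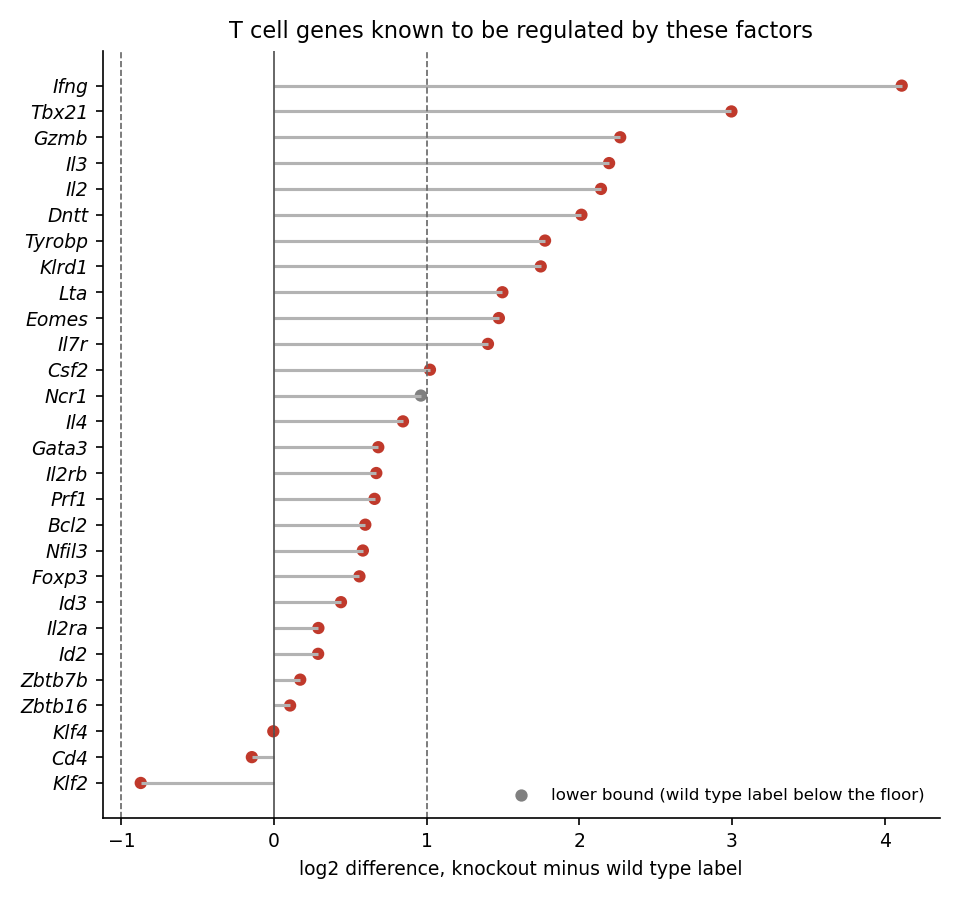
Log2 difference (knockout minus wild-type label) of the 28 genes above the floor from the list of regulated T cell genes, sorted by value. The list holds genes reported as regulated by these factors or their relatives. Dashed lines mark 2-fold, and the grey point (Ncr1) is a lower bound. Ifng at 4.11 is highest and Klf2 at -0.87 lowest.

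Markers of other cells also differed between the arrays. All 10 general T cell markers with a probe, Cd4 included, were above the floor on both arrays, and 9 were lower under the knockout label. Their summed signals were 307300 units under the knockout label and 352600 units under the wild-type label. Cd3e stood at -0.43. Of 13 markers of CD8 T and natural killer cells, 13 were above the floor under the knockout label and 7 under the wild-type label, with summed signals of 1901 and 529 units. At a fold of 1.5, 9 of the 13 were higher and 0 lower, where 7.67% and 4.25% of all genes were. Cd8a read 34.9 units under the knockout label and lay below the floor under the wild-type label. Of 10 B cell markers with a probe, 9 were above the floor under the knockout label and 8 under the wild-type label, with sums of 1374 and 618 units. Of these 9 B cell markers, 3 were at least 1.5-fold higher under the knockout label, where 7.67% of all genes were. The 3 were Ms4a1 (221 and 18.9 units), Blnk (386 and 30.6 units) and Fcer2a (142 and 31.1 units). The other 6 had gene values within 1.5-fold, with Cd79b at -0.17 and Bank1 at -0.08 below 0. For Ebf1 (17.7 and 3.21 units) that value is only a lower bound, since its wild-type-label reading lay below the floor. The 2 Cd79a probes gave 0.92 (88.9 and 45.9 units) and -0.10 (15.4 and 16.1 units). Pax5 was below the floor on both arrays.

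Myeloid markers summed to 6249 and 4923 units under the knockout and wild-type labels, with 4 and 3 of 9 above the floor and Lyz2 below it on both. Most of either sum came from 1 Itgam probe (5170 and 4250 units). Mpeg1, a macrophage gene also found in B cells, read 335 units on 1 probe under the knockout label. That was at least 23.1-fold higher than under the wild-type label, where the probe lay below the floor (11.7 units). The other Mpeg1 probe read 7.33 and 3.23 units, below the floor on both arrays. Erythroid and platelet markers summed to 344 and 213 units, with 3 and 2 of 6 above the floor. Ikzf3 and Spib are also genes of B cells, and Runx3, Tyrobp, Klrd1 and Ncr1 of CD8 T and natural killer cells. The part of such cells in these differences was not tested, and in bulk RNA fewer cells of a type and less RNA per cell cannot be told apart. Without the 5 marker genes that the list of regulated genes holds, 10 of 23 were at least 2-fold higher, where 3.62% of all genes were. The median of the 23 was 0.68. Only genes on both lists were taken out, and Ifng, Tbx21, Gzmb and Eomes stayed in, so the count does not bear on the part of other cells.

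The choice of processing decided the 2 members past 1.5-fold. That count was 0 of 8 after raising the floor to the 75th percentile, 1 of 8 without spots above feature number 50000 and 0 of 10 with 16 units added, where Runx2 stood at 0.43 and Ikzf3 at 0.37. Over 12 alternatives, 112 of 116 member values stayed within the spread of their probes or of replicate spots, whichever was larger. That limit is wide for Runx1 (0.29) and for Runx2 and Ikzf3 (0.35). Keeping only probes above the floor on both arrays, or taking the median over probes, could not change any member. The count is therefore no measure of stability. Ikzf1 lay between -0.34 and -0.20, Bcl11b between -0.27 and -0.13 and Ets1 between 0.16 and 0.24. Runx1 lay between -0.19 and 0.02, the last with the brighter probe alone.

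**Figure D5:**
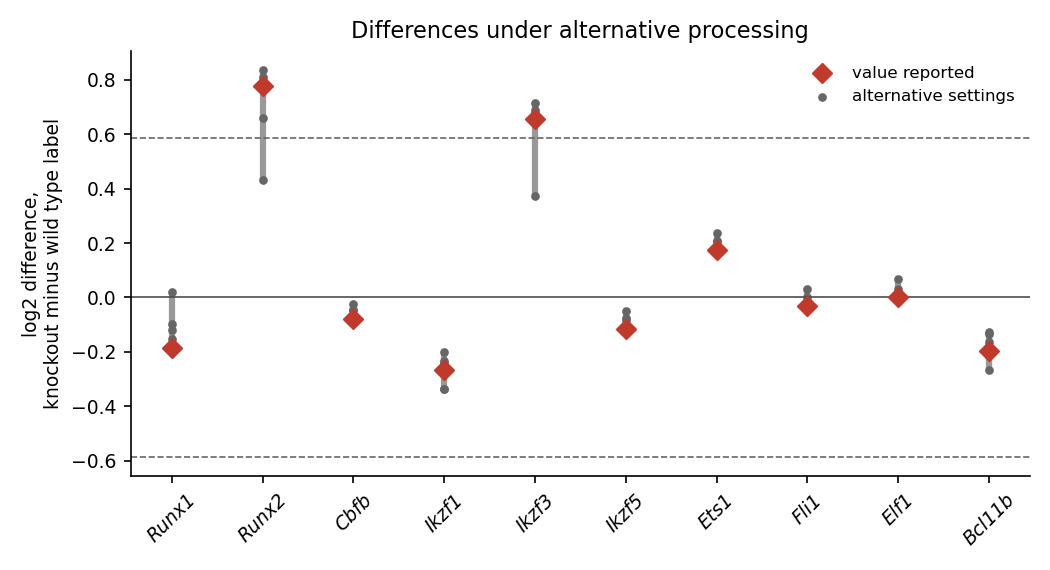
Log2 difference (knockout minus wild-type label) of each factor gene as reported (diamonds) and under the alternative settings (dots, with bars over their range). Dashed lines mark a 1.5-fold difference. Ikzf1 and Bcl11b stay below 0 and Ets1 above 0 throughout, and Runx2 and Ikzf3 fall under the 1.5-fold line at 0.43 and 0.37.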

How the data were processed

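Agilent Feature Extraction 11.5.1.1 is named in the submitters' processing notes, and Cy3 label made from 100 ng of total RNA in the labels' protocols. The deposited files give 1 linear intensity per spot. No source used here states its background correction, and flags were not analysed here. A deposited value table holds the same intensities times a near constant (median ratio 2.26 for the knockout label, 2.27 for wild type) and served as an alternative. How its constants were chosen is unknown.

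Intensities were put on the log2 scale, averaged over spots of a probe and scaled to the 75th percentile of 55681 probes. Signals at or below each array's median were set to that floor, and probes below it on both arrays were left out. Gene values are means over the remaining probes. Gene names come from the platform annotation (31465 spots with 1 symbol, 0 with several, 27840 without), updated through RefSeq accession for 29050 spots, symbol for 2061 and synonym for 349, while 5 kept their name. Member symbols named the same 17 spots before and after. Of the promoter windows, 10 matched 7 members.

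Genes were counted by fold, since 1 array per group allows no test, and the number of arrays limits the precision. Named were all members, fixed relatives, list genes past 1.5-fold (regulated list 2-fold) and the extremes of the corepressor and regulated lists. Values were already known when Spi1, Zbtb7b, Xist, Eif2s3y, the B cell and myeloid markers beside Ms4a1 and Lyz2, and the genes under other observations were picked. The members and lists were chosen with earlier results of these data known. Steps were tested on simulated data, with folds placed only in genes above 50 units and noise set as between replicate spots. That test did not check the 1.5-fold rule, folds in dimmer genes or variation between cultures. The tools were matplotlib 3.10.9, statsmodels 0.14.6, numpy 2.4.6, pandas 2.3.3 and Python 3.11.15.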

Additional observations from a re-analysis of the deposited data

How the results depend on the processing

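Alternatives were other scalings (median, quantile, cyclic loess with span 0.3, none), the authors' value table, floors at the 25th and 75th percentile, only probes above the floor on both arrays, a gene's median or brightest probe, leaving out spots above feature number 50000, and 16 units added. The count of members 2-fold apart was 0 under all 12. The count of members 1.5-fold apart, 2 as reported, was 0 of 8 with the floor at the 75th percentile, 1 of 8 without the late-numbered spots and 0 of 10 with 16 units added. The first 2 hold fewer genes by construction. The other family genes 1.5-fold apart, 6 as reported, numbered 2 with the floor at the 75th percentile and 3 with 16 units added. With the floor at the 75th percentile 7 regulated genes were 2-fold apart, against 12 as reported. With the floor at the 25th percentile 3 coregulators were 1.5-fold apart, against 1. The cause was not tested beyond these constructions. The median of the members ran from -0.09 to 0.00199 and that of all genes from -0.06 to 0.01, both above 0 only with cyclic loess. Under cyclic loess alone Cbfb, Ets1, Fli1 and Elf1 moved by more than their spread, as the median of all genes did in the same direction. Without background flags, values under 50 units are the least certain. No paired analysis was possible because each group has 1 array.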

Other observations

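The ternary complex factors of the Ets family, which act with serum response factor at immediate early genes, were singled out after their values were seen. Elk3 was lower on all 3 probes, with a mean of -0.30 ± 0.063 (SD over 3 probes). Elk4 stood at -0.32 ± 0.29 (SD over 3 probes) and Elk1 at -0.40 ± 0.42 (SD over 2 probes). The bright Elk1 probe gave -0.10 (223000 and 234000 units under the knockout and wild-type labels). The dim Elk1 probe gave -0.69 (21.5 and 34 units), at a signal where replicate spots gave an SD of 0.35. The annotation ties both Elk1 probes to the same RefSeq transcript. Why they read at such unlike levels was not tested, so their mean is uncertain. Of Ets genes outside that group, Etv5 stood at -0.26 and Etv4 at -0.10 ± 0.038 (SD over 2 probes). With 1 array per label these are values only.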
